A study of Mus musculus with 30 samples.

Results

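Platelet RNA of mice with a large tumor was set against platelet RNA of mice without one. The comparison took the 10 platelet libraries labelled O group and C group, 5 of each, out of 30 libraries of platelets and peripheral blood mononuclear cells (PBMCs) in the series. O group mice had received 100000 cells of B16F10, a pigmented mouse melanoma line, under the skin of the right flank in 100 µl of Hank's balanced salt solution (HBSS). C group mice had received HBSS alone. S group mice, whose platelet libraries are shown beside a set of genes, had received 2000 cells. All were female C57BL/6 mice of 6 to 8 weeks, and their blood was drawn on day 14. The libraries are called C1 to C5 and O1 to O5 by the replicate numbers of the labels. Each was made from a pool of mice, 10, 5, 5, 10 and 10 in C1 to C5 and 3, 4, 5, 3 and 5 in O1 to O5, so the pools of C group were mostly larger, while 2 pools of each group held 5 mice. In a fit with only the C group pools of 5 mice, 61 of the 347 higher and 68 of the 288 lower genes described below were called again, with 3 fewer libraries. Since the pools are separate samples of several animals, a P value here measures the spread between pools.

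Platelets are cell fragments without a nucleus that bud from megakaryocytes in bone marrow. They carry RNA that was packed by the megakaryocyte and RNA taken up in blood, and their own transcription is absent. Tumors are known to act on megakaryocytes, on the marrow output of neutrophils and red cells, and on lymphocytes. A platelet pellet spun from plasma also keeps some reticulocytes, the young red cells that still hold globin RNA, and some leukocytes.

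The libraries held between 12259036 and 25360080 counts on genes. None of 4 measures of the whole library passed the test between the groups. For the number of genes with at least 1 count, the means were 18783 ± 245 (SD, n = 5) in C group and 17940.2 ± 948 (SD, n = 5) in O group, with a two-sided exact permutation P of 0.0794 and an adjusted P of 0.317 over the 4 measures. Platelet transcripts were abundant in all 10 libraries, with Itga2b, the fibrinogen receptor chain, between 2483 and 11673 CPM (counts relative to library size, here and below scaled by trimmed mean of M values, TMM). Summed over 17 genes of platelet adhesion receptors, the level ran from 13952 to 36654 CPM in C group and from 8516 to 32005 CPM in O group, lowest in O5. Several libraries stood apart from the rest of their own group. Hemoglobin genes took 39.0% of the counts of O1, between 4.02% and 5.29% in C2, O2 and O4, and between 17.2% and 27.6% in the other libraries. In C1, 362 counts fell on genes of the Y chromosome, although the mice were described as female, and in the other 9 libraries there were 0. In C3, 20542 counts fell on 19 genes of retina and lens, a list drawn up after the values were seen, against 50 to 1351 in the other libraries. Blood was drawn from behind the eye, and the part of this in any result was not tested. The first principal component of log2 CPM, with 41.5% of the variance, set O1 apart from the other 9.

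Few genes separated the groups. Of 13270 genes tested with edgeR's quasi-likelihood test, 347 were higher and 288 lower in O group at an unadjusted P under 0.05. Together these were 4.79% of the genes tested (2.61% higher and 2.17% lower). At this threshold chance alone gives about 1 gene in 20, so the number of calls by itself does not show a difference between the groups. None passed an adjusted P under 0.05. The smallest adjusted P of edgeR was 0.910, so it was at least that for every gene tested, and "rose", "fell" and "called" refer to the unadjusted threshold. Differences are log2 values of O group against C group with the standard error (SE) of the fit of 5 against 5 libraries. DESeq2 tested 25525 genes and called 948 (3.71%) at the unadjusted threshold and 13 with an adjusted P under 0.05 (0.0684% of those that received one). The smallest adjusted P belonged to Cryaa, a lens crystallin, of which C3 held 88.9% of the summed CPM and which did not enter the edgeR test. The others were Prrt4, Gstt1, Rapsn, Hfe2 and Gm6093, which were high in O1 and O4 and are described below, Nhsl2, Pstpip2, Mgp, Gm17276, Slc47a1, Slc26a7 and Cd248. In 59 genes all 5 O group libraries lay above all 5 of C group and in 62 all lay below, which is 0.445% and 0.467% of the genes tested. A gene without a difference also separates by chance, in each direction in 1 of the possible arrangements of 5 against 5 libraries. The number of arrangements is given with the processing below. These 2 counts by themselves therefore do not show a difference between the groups either.

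The leading genes, 12 in each direction, were those of smallest P whose groups did not overlap. The gene with the smallest P of the higher ones was Nhsl2, a relative of the actin regulator Nhs (ENSMUSG00000079481, chromosome X, 101849385 to 102092055 of GRCm38, plus strand). Nhsl2 was at 10.3, 6.72, 6.32, 6.06 and 6.86 CPM in C1 to C5 and at 17.3, 17.8, 14.8, 10.9 and 22.4 CPM in O1 to O5. The lowest O group library lay just above the highest of C group, and the log2 difference was 1.20 ± 0.22 (SE). Pstpip2 codes for an adaptor protein that holds macrophages and the cortical cytoskeleton in check. The level of Pstpip2 was 2.94, 3.96, 3.40, 3.06 and 2.60 CPM in C1 to C5 and 12.1, 6.89, 6.66, 4.91 and 8.74 CPM in O1 to O5. Its log2 difference was 1.29 ± 0.25 (SE), and O4 was again the lowest pool of O group. Pygl codes for the glycogen phosphorylase of liver, which platelets and neutrophils also use to release glucose from glycogen. In C1 to C5 Pygl was measured at 35.4, 23.9, 43.8, 17.7 and 17.2 CPM, and in O1 to O5 at 158, 60.7, 48.1, 71.7 and 47.8 CPM. The difference of 1.48 ± 0.38 (SE) was widest in O1 and remained at 1.05 on the log2 scale without that library.

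Rap1gap2, which switches off the platelet GTPase Rap1 and takes part in granule release, rose by 0.68 ± 0.16 (SE). From C1 to C5 the values of Rap1gap2 were 19.6, 17.4, 17.8, 13.1 and 16.4 CPM, and from O1 to O5 30.5, 26.8, 29.5, 20.8 and 27.6 CPM. The groups were separated by a narrow gap. Synj1, a phosphatase of phosphoinositides, rose by 0.84 ± 0.21 (SE), and Rab31, a GTPase of vesicle traffic, by 0.76 ± 0.20 (SE). Sipa1l2, of a family of Rap GTPase-activating proteins, rose by 0.66 ± 0.19 (SE), Abr, a regulator of Rac, by 0.43 ± 0.13 (SE), and Dgkh, a diacylglycerol kinase, by 0.85 ± 0.23 (SE). Apaf1, the scaffold of the apoptosome, rose by 0.54 ± 0.14 (SE). The C group pools gave 15.9, 17.4, 16.7, 19.6 and 17.8 CPM of Apaf1 (C1 to C5) and the O group pools 22.4, 24.1, 25.6, 24.4 and 30.98 CPM (O1 to O5). All 5 O group pools lay above all 5 of C group, with O5 the highest. N4bp1, an inhibitor of cytokine responses, rose by 0.49 ± 0.13 (SE). All 12 kept P under 0.05 in each of the 10 fits that left out 1 library, which their choice from the same libraries favours.

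**Figure D1:**
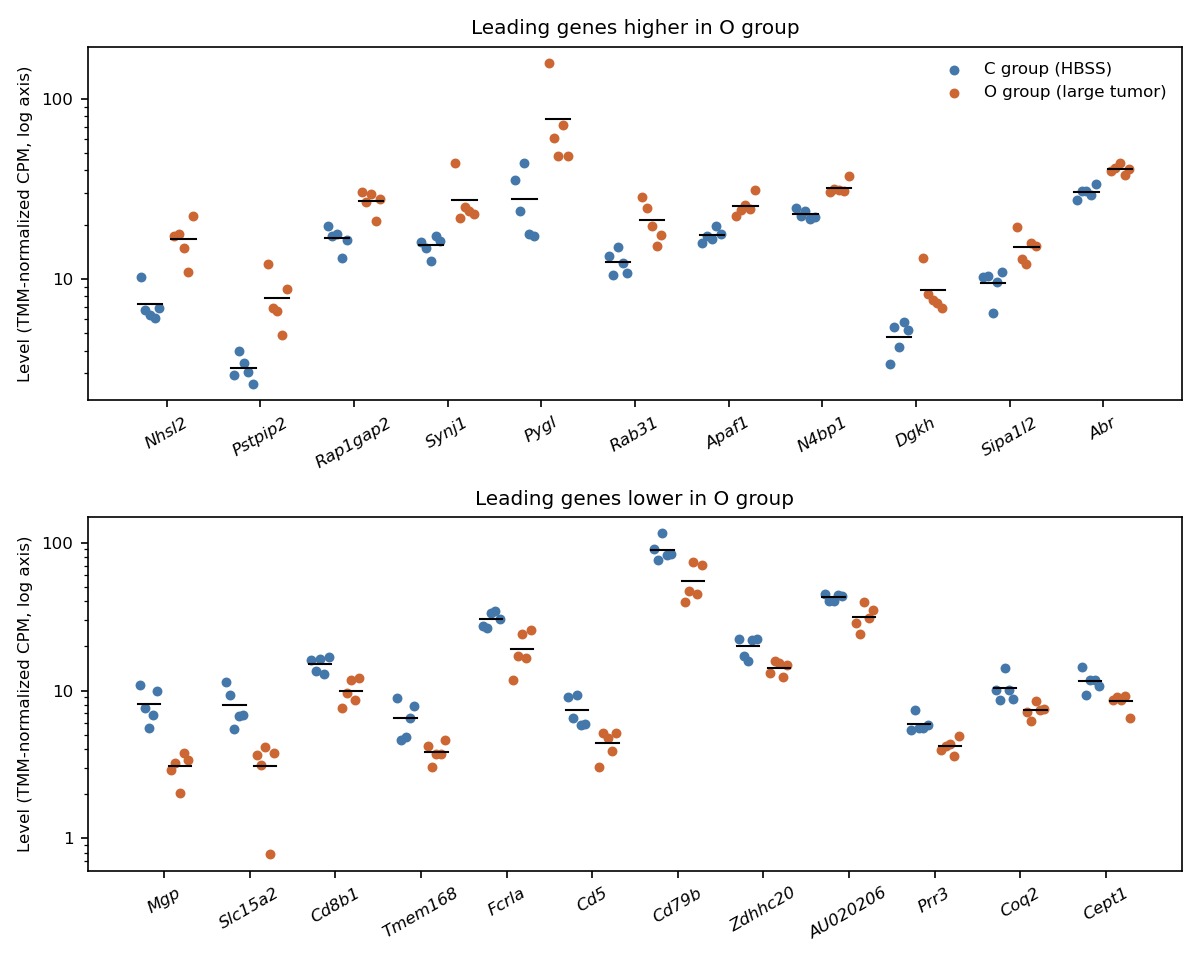
Level of leading genes higher in O group (upper panel) and lower in O group (lower panel), in TMM-normalized CPM on a log axis. Each point is 1 library, blue for C group and orange for O group, and each bar is the mean of 5 libraries; the groups do not overlap for any gene shown, a property by which they were chosen.

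Among the lower genes the smallest P belonged to Mgp, matrix Gla protein, an inhibitor of calcification made by vascular and cartilage cells (ENSMUSG00000030218, chromosome 6, 136872435 to 136875823 of GRCm38, minus strand). C group had 10.9, 7.59, 5.61, 6.78 and 9.91 CPM of Mgp and O group 2.92, 3.23, 2.03, 3.79 and 3.40 CPM, each in the order of replicate numbers. All 5 O group pools lay under 4 CPM and all 5 of C group above 5 CPM. The log2 difference was -1.40 ± 0.25 (SE). Slc15a2, a peptide transporter, fell by 1.37 ± 0.38 (SE). Slc15a2 was at 11.5, 9.32, 5.47, 6.71 and 6.86 CPM in C1 to C5 and at 3.69, 3.13, 4.13, 0.778 and 3.75 CPM in O1 to O5. The lowest pool was O4. Of the other 10 genes, 4 mark lymphocytes: Cd8b1 and Cd5 for T cells, Cd79b and Fcrla for B cells. The remaining ones were Tmem168, Zdhhc20, a palmitoyl transferase, AU020206, a long non-coding RNA, Prr3, Coq2, an enzyme of coenzyme Q synthesis, and Cept1, of phospholipid synthesis, with log2 differences from -0.77 to -0.44. Of the 12 lower genes, 10 kept P under 0.05 in each fit that left out 1 library, which their choice likewise favours. Prr3 lost it without C2, and Cept1 without C1 and without O5. Without both O1 and O4, Cd8b1, Fcrla, Cd5, Cd79b, Zdhhc20, AU020206, Prr3 and Coq2 lost the call, and no leading higher gene did.

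Several lymphocyte genes were lower in O group. Of 21 T cell genes tested, 8 fell and 0 rose, against a background of 2.17% of genes lower. The median log2 difference of the list was -0.44, beside -0.01 over all genes. Cd8b1, the beta chain of the CD8 coreceptor, showed the smallest P of them. The level of Cd8b1 was 16.1, 13.6, 16.4, 12.97 and 16.8 CPM in C1 to C5 and 7.63, 9.59, 11.8, 8.66 and 12.2 CPM in O1 to O5. The highest O group pool stayed just below the lowest of C group. Thy1, a surface glycoprotein of T cells, fell by 0.69 ± 0.22 (SE). In C1 to C5 Thy1 was measured at 27.8, 15.7, 18.96, 20.7 and 20.1 CPM, and in O1 to O5 at 11.6, 11.1, 17.7, 8.71 and 15.1 CPM. O3 reached into the range of C group and the other 4 O group pools lay below it. Il7r, the receptor for the survival cytokine IL-7, fell by 0.58 ± 0.20 (SE), Ccr7, the homing receptor of naive T cells, by 0.69 ± 0.27 (SE), and Trac, the constant region of the T cell receptor alpha chain, by 0.60 ± 0.24 (SE). Cd4 and Cd8a fell by 0.57 and 0.44 on the same scale, and Cd5, an inhibitor of T cell receptor signals, by 0.72.

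Of 20 B cell genes, 5 fell and 0 rose, against 2.17% of all genes lower. Cd79b, the signalling chain of the B cell receptor, was the most abundant of the leading genes. From C1 to C5 the values of Cd79b were 91.1, 76.5, 116, 81.9 and 83.5 CPM, and from O1 to O5 39.8, 46.8, 74.3, 45.1 and 70.5 CPM. O1, O2 and O4 were the 3 lowest libraries, and O3 and O5 lay just under C group. Fcrla, an intracellular protein of B cells, fell by 0.67 ± 0.21 (SE), Ms4a1, which codes for CD20, by 0.67 ± 0.23 (SE), and Igkc, the constant region of the kappa light chain, by 0.75 ± 0.26 (SE). Cd79a fell by 0.54. MHC class II genes, which B cells and other antigen presenting cells carry, had 3 of 10 members lower and 0 higher, beside the same share: the invariant chain Cd74 and the peptide editors H2-Oa and H2-Ob. Of 16 genes of NK and cytotoxic cells, Klrd1, Ctsw and Il2rb fell and 0 rose, beside the same share. Without O1 and O4, 0 MHC class II genes and 1 NK gene were lower, and without C1 and C3 1 and 0, beside 1.33% of all genes in each fit. Without O1 and O4 1 NK gene was also higher, beside 1.80% of all genes. With limma's sample weights 2 NK genes were higher and 3 lower, beside 395 and 488 of 13270 genes.

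The summed level of these lists was also compared. The 20 B cell genes summed to between 1913 and 2186 CPM in C group and between 954 and 2024 CPM in O group, where O1, O2 and O4 lay below every C group pool. The 21 T cell genes summed to between 681 and 780 CPM and between 667 and 773 CPM, so the groups overlapped although 8 of the genes were called lower. In RNA from a pellet, fewer cells of a type and less RNA per cell cannot be told apart. Without O1 alone, 8 T cell genes and 4 B cell genes were lower at P under 0.05, against 2.57% of all genes, and without both pools of 3 mice 0 of either list were, against 1.33%. In that fit the medians of the 2 lists were -0.28 and -0.19. Cd8b1, Cd5, Cd79b and Fcrla then had log2 differences of -0.38, -0.49, -0.44 and -0.39. Without C1 and C3, 3 T cell genes and 1 B cell gene were lower, against 1.33% of all genes. Both fits have 2 fewer libraries.

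**Figure D2:**
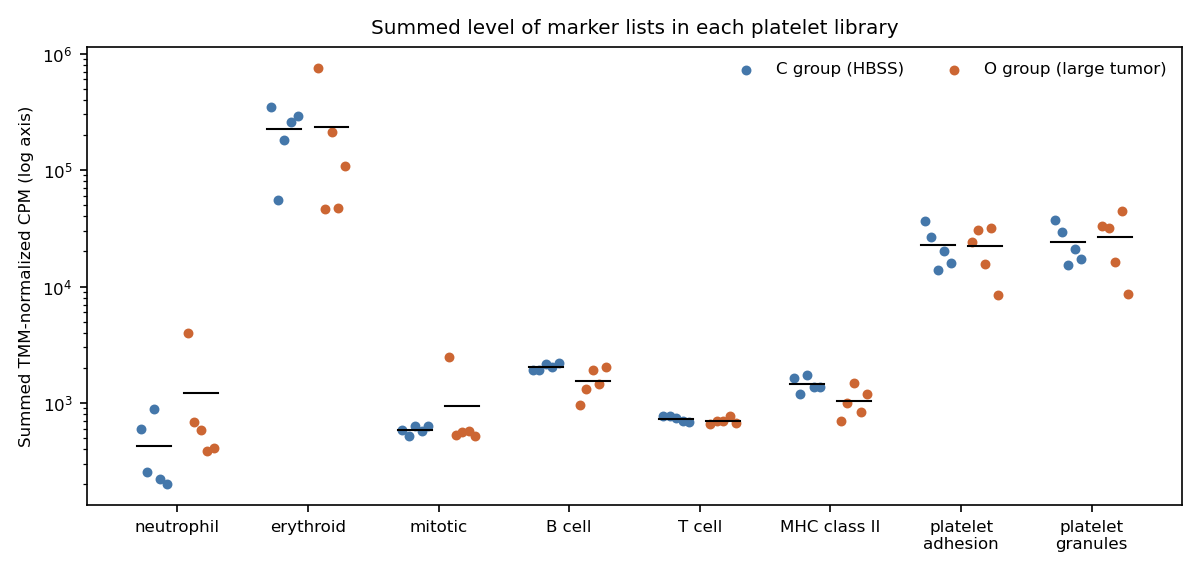
Summed level of 8 lists of genes in each platelet library, in TMM-normalized CPM on a log axis. Each point is 1 library and each bar a group mean; O1 is the highest library for the neutrophil, erythroid and mitotic lists, while for B cell and MHC class II genes O1 and O4 are among the lowest.

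Part of the neutrophil genes rose, and O1 was the highest library for most of them. Of 19 tested, 8 were higher and 0 lower, against 2.61% of all genes, and the median log2 difference was 1.79. S100a8 and S100a9 code for the 2 chains of calprotectin, the main protein of neutrophil cytosol. The C group pools gave 123, 56.8, 230.1, 58.5 and 52.8 CPM of S100a8 (C1 to C5) and the O group pools 1231, 197, 151, 109 and 114 CPM (O1 to O5). C group had 159, 78.8, 327, 71.4 and 63.1 CPM of S100a9 and O group 1292, 285, 209, 159.8 and 147 CPM, each in the order of replicate numbers. In both genes O1 was far above every other library, C3 was the next, and the other pools of the 2 groups overlapped. Ngp, a granule protein of developing neutrophils, was at 107 CPM in O1 and between 0.341 and 4.48 CPM elsewhere. Lcn2, Mmp8, Wfdc21 and Stfa2l1 showed the same pattern, with O1 at 104, 78.2, 37.7 and 57.95 CPM and no other library above 9.15 CPM. Prtn3, the precursor granule protease proteinase 3, was the exception. Prtn3 was at 1.27, 0.165, 0.943, 0.913 and 0.635 CPM in C1 to C5 and at 2.80, 2.28, 1.59, 3.99 and 0.502 CPM in O1 to O5. Its highest pool was O4, and it alone of the 8 stayed at P under 0.05 without O1, but it lost the call without O4. The list median without O1 was 0.11. With the replicate number as a block, Ngp, Lcn2 and Wfdc21 lost the call. With limma's sample weights, which give O1 the lowest weight, 11 neutrophil genes were higher, against 395 of all 13270 genes, and the median was 1.12. Without C1 and C3, 12 neutrophil genes were higher against 2.80% of all genes, and without O1 and O4 0 were against 1.80%, with a median of 0.35.

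Some genes of red cell precursors and of dividing cells were called through O1. Of 23 erythroid genes, 4 were called higher, against 2.61% of all genes: Klf1, the master transcription factor of red cells, Tfrc, the transferrin receptor, Rhag, of the Rh complex, and Ermap. The level of Tfrc was 12.4, 3.92, 5.00, 10.3 and 10.4 CPM in C1 to C5 and 392, 4.18, 7.67, 5.74 and 6.59 CPM in O1 to O5. O1 was far above every other library, and the other 4 O group pools lay within the range of C group. With the replicate number as a block all 4 lost the call. Of the 33 genes of the mitotic cell cycle, 5 were higher against the same share: Mki67, which codes for the proliferation antigen Ki-67, Ccnb1, Ccnb2, Rrm2 and Tyms. In C1 to C5 Mki67 was measured at 14.01, 8.58, 8.30, 12.6 and 17.3 CPM, and in O1 to O5 at 659, 11.4, 14.1, 17.6 and 10.01 CPM. Here too the other 4 O group pools overlapped with C group, and with the block all 5 genes lost the call. Cpox, an enzyme of heme synthesis, was at 108 CPM in O1 and at most 11.9 CPM elsewhere. Without O1, the median of the erythroid list turned from 1.02 to -1.02, no erythroid or mitotic gene was called higher against 1.80% of all genes, and the log2 differences of Tfrc, Rhag and Ermap became -0.47, -0.23 and -0.32.

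Few genes of platelets themselves passed the test, beside 2.61% of all genes higher and 2.17% lower. Of 15 adhesion receptor genes and 14 genes of megakaryocyte transcription factors and the thrombopoietin receptor, 0 were called. Of 26 genes of granule cargo, 1 was called, Sparc, a matrix protein of alpha granules, which fell by 0.72 ± 0.30 (SE). From C1 to C5 the values of Sparc were 30.2, 40.04, 40.7, 55.3 and 74.9 CPM, and from O1 to O5 13.98, 36.3, 22.7, 36.2 and 37.03 CPM. The groups overlapped, O1 was the lowest library, and the call was lost without it and without C2, C4, C5 or O3. The chemokines Pf4 and Ppbp, the most abundant granule cargo, had log2 differences of 0.58 ± 0.55 (SE) and 0.07 ± 0.50 (SE). The C group pools gave 6472, 5833, 3782, 3528 and 2883 CPM of Pf4 (C1 to C5) and the O group pools 10419, 6528, 3498, 11877 and 1379 CPM (O1 to O5). The spread within O group, from 1379 to 11877 CPM, covered the whole range of C group.

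Of 20 genes of agonist receptors and their G protein signalling, 3 were called higher, against 2.61% of all genes. Without O1 it was 1, against 1.80% of all genes. Without C1 and C3 it was 0, against 2.80%, and with limma's sample weights 0, against 395 of 13270 genes. F2r codes for PAR1, a thrombin receptor that mouse platelets hold little of. C group had 14.95, 10.6, 7.92, 12.9 and 16.6 CPM of F2r and O group 107, 21.98, 13.7, 59.6 and 8.68 CPM, each in the order of replicate numbers. O1 and O4 were far above the other 8 libraries, and O5 was near the lowest. Ptger3, the EP3 receptor for prostaglandin E2, rose by 1.21 ± 0.50 (SE) and Adra2a, the adrenergic alpha-2A receptor, by 2.45 ± 0.99 (SE), the first in O1 and O4 and the second in O1 alone. Tuba4a, a platelet tubulin, was the 1 of 20 cytoskeletal genes called higher. Tuba4a was at 637, 332, 247, 288 and 223 CPM in C1 to C5 and at 2256, 456, 310.1, 1741 and 179 CPM in O1 to O5. It too stood out in O1 and O4. The call was lost without O1, without C1 and C3, with limma's sample weights and with the replicate number as a block, and without O1 and O4 the log2 difference was -0.09. Among 11 genes of eicosanoid synthesis, Alox5, the 5-lipoxygenase that starts leukotriene synthesis, rose by 1.96 ± 0.67 (SE), with 73.7 and 33.6 CPM in O1 and O4 and at most 16.3 CPM elsewhere. Hpgds and Ptgds, which both make prostaglandin D2, fell by 1.13 ± 0.42 (SE) and 1.03. Ptgds was at 39.8 CPM in C3, the library with the retina and lens counts, and at most 14.3 CPM elsewhere, and it lost the call without C3. The main lipoxygenase of platelets, Alox12, had a log2 difference of 0.04 ± 0.45 (SE).

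The 2 pools of 3 mice, O1 and O4, shared a set of transcripts that were much lower in the other 8 libraries. Of 8335 genes with a mean of at least 5 CPM, 22 were at least 4 times higher in both O1 and O4 than in each of the other 8 O and C group libraries, and of the 45 pairs of libraries this was the only pair with any such gene, leaving out genes for which 1 library alone was 4 times above the next. The set was found from these values, so its levels are a description. Gstt1, glutathione S-transferase theta 1, led it (ENSMUSG00000001663, chromosome 10, 75783813 to 75798584 of GRCm38, minus strand). The level of Gstt1 was 8.97, 6.43, 5.24, 11.1 and 5.46 CPM in C1 to C5 and 2918, 25.9, 30.5, 2883 and 5.70 CPM in O1 to O5. O1 and O4 were alike and far above the other 8 libraries, and O5 was within the range of C group. Prrt4, a proline-rich transmembrane protein (ENSMUSG00000079654, chromosome 6, 29169232 to 29179584 of GRCm38, minus strand), showed the same contrast at a lower level. In C1 to C5 Prrt4 was measured at 0.166, 0.289, 0.189, 0.0652 and 0.191 CPM, and in O1 to O5 at 381, 0.371, 0.724, 241 and 0.266 CPM. Of the others, Hfe2, which codes for hemojuvelin, a regulator of hepcidin, was at 382 and 346 CPM against at most 7.84 CPM, and Rapsn, known from the neuromuscular synapse, at 42.3 and 28.2 CPM against at most 0.579 CPM. Col18a1, the collagen from which endostatin is cut, was at 116 and 78.8 CPM against at most 8.76 CPM.

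Dstn, the actin-severing protein destrin, was at 1126 and 872 CPM against at most 176 CPM. Tpm2, a tropomyosin, was at 529 and 539 CPM, and Clca3a1, of a family of chloride channel regulators and part of the study's qPCR panel, at 369 and 374 CPM. Slpi, a secreted inhibitor of neutrophil elastase, was at 293 and 209.8 CPM, Cst7 at 76.8 and 59.3 CPM, and C3ar1, the receptor for complement C3a, at 28.6 and 18.8 CPM. All 5 platelet libraries of S group, mice given 2000 melanoma cells, lay below O1 and O4 for all 22 genes. In PBMC libraries, which the selection did not use, the pools labelled O1 and O4 were both above the other 8 for 20 of the 22 genes. Gstt1 was at 569.8 and 256 CPM in these 2 PBMC pools and at most 3.63 CPM in the others. Cst7 and C3ar1 were the exceptions. The PBMC pools O1 and O4 hold 3 mice each as well. The paper took PBMCs from the bottom layer of the blood spun for platelets, so the 2 tissues may share mice. The PBMC values are then not a separate test of the set. The shares of all genes with the S group pattern or the PBMC pattern were not counted. The sample labels name nothing else that sets these pools apart from the other O group pools, and whether the genes go with the tumor or with a difference in the mice or their handling was not tested. Of the 22 genes, 19 had enough counts in enough libraries to enter the edgeR test (Prrt4, Rapsn and Gm6093 did not) and all 19 were called higher, a direction that the choice of the set fixes. The groups overlapped for each of those named here. Without O1 and O4 the log2 difference of Gstt1 went from 7.30 to 1.504 and it kept its call, with O2 and O3 above C group, while Dstn, Tpm2, Clca3a1 and Slpi had differences of -0.24, -0.19, -0.06 and -0.38.

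**Figure D3:**
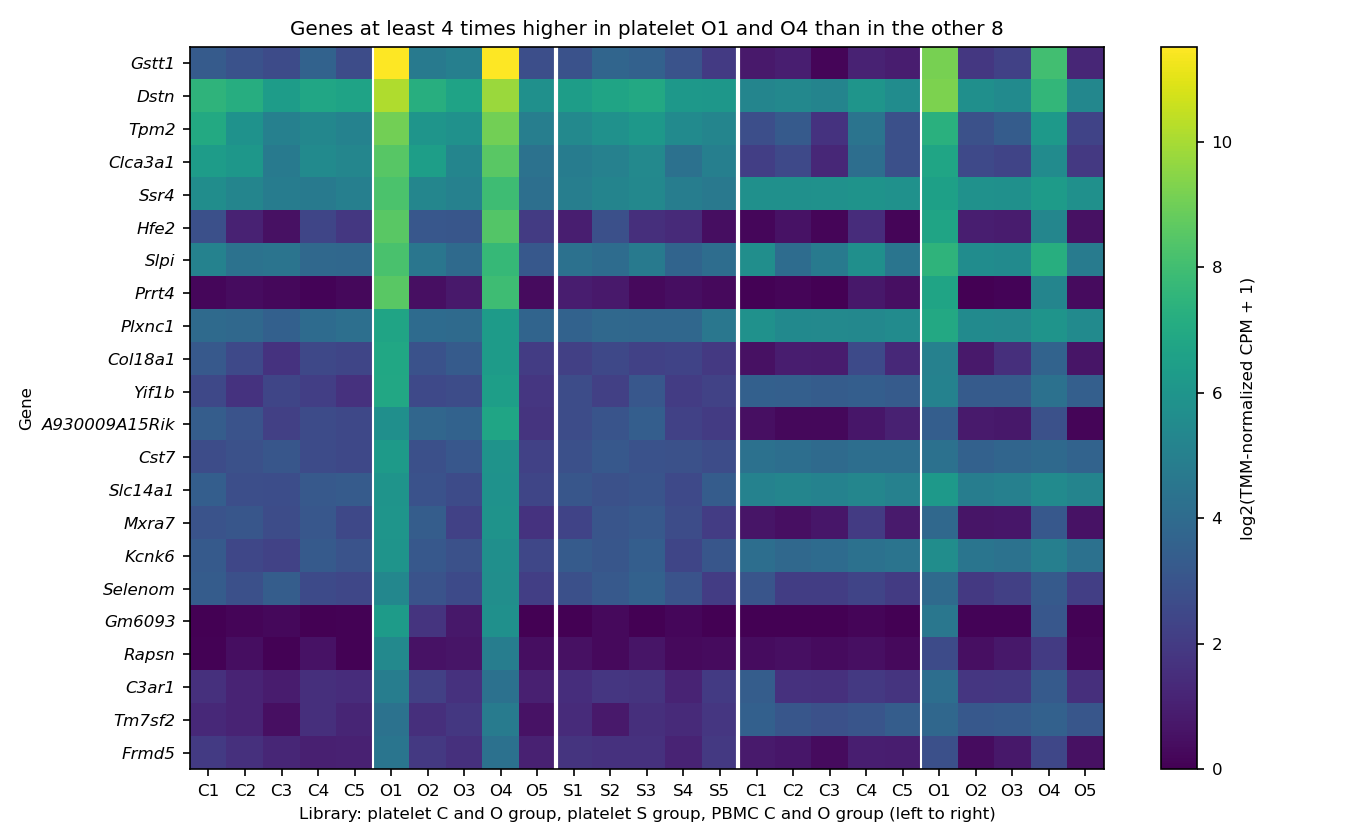
Level of the 22 genes, as log2(TMM-normalized CPM + 1), in 25 libraries: from left to right platelet C group, platelet O group, platelet S group, PBMC C group and PBMC O group. The columns O1 and O4 are bright in platelets and in PBMCs, with Gstt1 at 2918 and 2883 CPM in the 2 platelet libraries.

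The start regions of some of these genes are shown because the set was high together in 2 libraries. RefSeq promoters of the mouse build GRCm38.p6 matched 18 of the 22 genes by symbol, with 22 start sites, and the 250 bases before each were searched on both strands for 3 motifs of factors known in megakaryocytes. The letters AGATAA, bound by GATA factors, were in 3 of the 22 start regions and in 9.99% of all 32851 in the table. GGAAGT, an ETS site such as that of Fli1, was in 4, against 19.7% of all, and TGANTCA, of the NF-E2 type, in 2, against 6.75%. The first 2 sequences belong to the 2 genes described first and hold none of the 3. That of Gstt1 lies inside the gene span given above, since the RefSeq start used here differs from the start in that annotation. The other 3 sequences are those with the GATA letters. All motif letters found are in capitals, each sequence reads 5′ to 3′ on the strand of its gene, and a match is a description only.
Gstt1 (chr10:75797732-75797981, minus strand): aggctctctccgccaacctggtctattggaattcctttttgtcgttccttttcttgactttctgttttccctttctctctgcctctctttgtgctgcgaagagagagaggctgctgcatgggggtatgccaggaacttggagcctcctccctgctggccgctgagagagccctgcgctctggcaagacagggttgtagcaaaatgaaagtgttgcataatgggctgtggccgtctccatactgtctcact
Prrt4 (chr6:29179585-29179834, minus strand): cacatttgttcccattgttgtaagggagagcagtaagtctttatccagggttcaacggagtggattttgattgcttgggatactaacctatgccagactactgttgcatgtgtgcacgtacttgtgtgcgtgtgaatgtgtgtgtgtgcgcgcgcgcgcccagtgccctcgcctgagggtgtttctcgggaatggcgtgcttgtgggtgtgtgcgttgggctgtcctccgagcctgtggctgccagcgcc
C3ar1 (chr6:122856158-122856407, minus strand): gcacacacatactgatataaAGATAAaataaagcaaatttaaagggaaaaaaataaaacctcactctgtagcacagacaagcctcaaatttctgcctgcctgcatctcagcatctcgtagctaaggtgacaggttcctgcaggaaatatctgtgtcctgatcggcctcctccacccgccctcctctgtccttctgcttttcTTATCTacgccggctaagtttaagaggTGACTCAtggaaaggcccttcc
Selenom (chr11:3514434-3514683, plus strand): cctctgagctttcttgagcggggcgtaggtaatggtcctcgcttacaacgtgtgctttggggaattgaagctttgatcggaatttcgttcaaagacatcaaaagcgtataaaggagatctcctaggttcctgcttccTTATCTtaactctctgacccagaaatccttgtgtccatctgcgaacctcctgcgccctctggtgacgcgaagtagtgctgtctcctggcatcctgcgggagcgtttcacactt
A930009A15Rik (chr10:115569767-115570016, plus strand): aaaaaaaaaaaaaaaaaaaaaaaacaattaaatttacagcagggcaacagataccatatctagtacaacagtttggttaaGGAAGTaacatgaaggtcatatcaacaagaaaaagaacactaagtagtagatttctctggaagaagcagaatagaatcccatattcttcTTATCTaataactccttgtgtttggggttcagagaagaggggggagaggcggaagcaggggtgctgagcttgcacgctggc

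Few metabolic genes passed the test. Of 75 nuclear genes of oxidative phosphorylation, 4 rose and 0 fell, beside 2.61% of all genes higher: the complex I subunits Ndufv3 and Ndufb8 and the complex III subunits Uqcrb and Uqcrq. From C1 to C5 the values of Ndufv3 were 19.99, 24.9, 25.99, 17.99 and 16.96 CPM, and from O1 to O5 88.8, 24.6, 23.7, 70.6 and 16.4 CPM. O1 and O4 were high and the other pools overlapped. None of the 4 was called without O1 or with the replicate number as a block, and the median of the list went from 0.46 to 0.07. Of 20 glycolytic genes 3 were called higher, Hk2, Hk3 and Pgam1. Without O1 only 1 of them, Hk2, was, and Hk3 and Pgam1 had log2 differences of 0.54 and 0.44. Hk2, the inducible hexokinase, was higher with O1 only slightly above O5. The C group pools gave 5.82, 5.32, 10.7, 5.80 and 3.56 CPM of Hk2 (C1 to C5) and the O group pools 12.8, 11.3, 11.0045, 6.52 and 11.6 CPM (O1 to O5). O4 was the lowest O group pool, inside the range of C group, and the call held in each fit that left out 1 library. Fosl2, an AP-1 factor among 26 immediate early genes, rose by 1.00 ± 0.28 (SE) and also held in each. C group had 13.4, 10.4, 9.20, 8.80 and 10.6 CPM of Fosl2 and O group 40.3, 17.4, 16.9, 13.3 and 17.4 CPM, each in the order of replicate numbers. All O group pools except O4 lay above C group. Dusp2, a phosphatase of MAP kinases, fell by 0.59 ± 0.23 (SE).

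In the lists of this paragraph few genes passed, and their counts are to be read beside 2.61% of all genes higher and 2.17% lower. Of 24 genes of monocytes and macrophages, Ace, the angiotensin converting enzyme of patrolling monocytes, and C1qc, a chain of complement C1q, fell by 0.80 ± 0.28 (SE) and 0.97, and F10, coagulation factor X, rose by 1.49 ± 0.66 (SE) in O1 and O4. Of 60 cytokine, chemokine and receptor genes, 1 rose, Csf2rb, and 2 fell. Flt1, a VEGF receptor, rose by 0.78 ± 0.29 (SE), and held in each fit that left out 1 library. In the type I interferon list 0 of 36 genes passed the threshold, in the list of 79 cytosolic ribosomal proteins 1 fell, and of 15 mitochondrially encoded genes 0 passed. Sesn2 rose among 24 p53 targets and Apaf1 among 19 genes of the Bcl-2 and apoptosis list. H2-Q4 fell among 22 MHC class I genes. Col1a2 fell beside Flt1 among 14 genes of endothelium and fibroblasts. P4ha1 fell and Slc40a1 and Cpox were among those that rose of 19 genes of hypoxia and heme handling. None passed among 18 replication-dependent histones, 12 nuclear non-coding RNAs, 5 qPCR reference genes, 2 liver genes and 1 keratinocyte gene. The study's qPCR panel had 2 of 35 genes higher, Clca3a1 and S100a9, and 4 lower. The panel was chosen by the study on these samples and is not independent evidence. Melanocyte transcripts were not higher in O group as a list. Of 17 genes of melanocytes and melanoma, only 4 had enough counts to be tested, the list summed to at most 9.20 CPM in any library, and Pmel, a melanosome protein, was between 0.487 and 2.60 CPM in both groups. Kit and Mitf, which mast cells and other blood cells also use, passed the threshold in opposite directions at levels of at most 3.00 CPM.

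The weight of single libraries was uneven. O1 was the highest of the 10 libraries for 253 of the 347 genes higher in O group and the lowest for 134 of the 288 lower. It held more than 50% of the summed CPM of 127 genes with a mean of at least 5 CPM, and was at least 4 times above the next library for 162, against 6 genes in C3, 1 in C2 and 0 in the rest. Of the 22 erythroid genes at that level 13 were among the 162, as were 10 of 17 neutrophil genes. The gene held most unequally was in C1 Jchain, of plasma cells, in C2 Majin, in C3 the photoreceptor gene Prph2, in C4 the clock gene Dbp, in C5 Gm29216, in O1 Cystm1 (92.4% of its summed CPM), in O2 mt-Co2, in O3 Gm7536, in O4 A930009A15Rik and in O5 Alox15. Weights fitted from the spread of each library by limma were lowest for O1 (0.321) and highest for C4 (2.60). The common biological coefficient of variation was 0.392 with all libraries, 0.330 without O1 and between 0.385 and 0.417 without any other.

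Leaving out 1 library changed which genes passed. Without O1, 143 of the 347 higher genes and 176 of the 288 lower ones were called again, and 247 and 353 were called in all. Without O2 the calls were 486 and 586. In the 10 fits, 95 of the higher genes and 71 of the lower were called each time. Among the genes whose groups did not overlap, 31 of 59 higher and 28 of 62 lower were called each time.

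**Figure D4:**
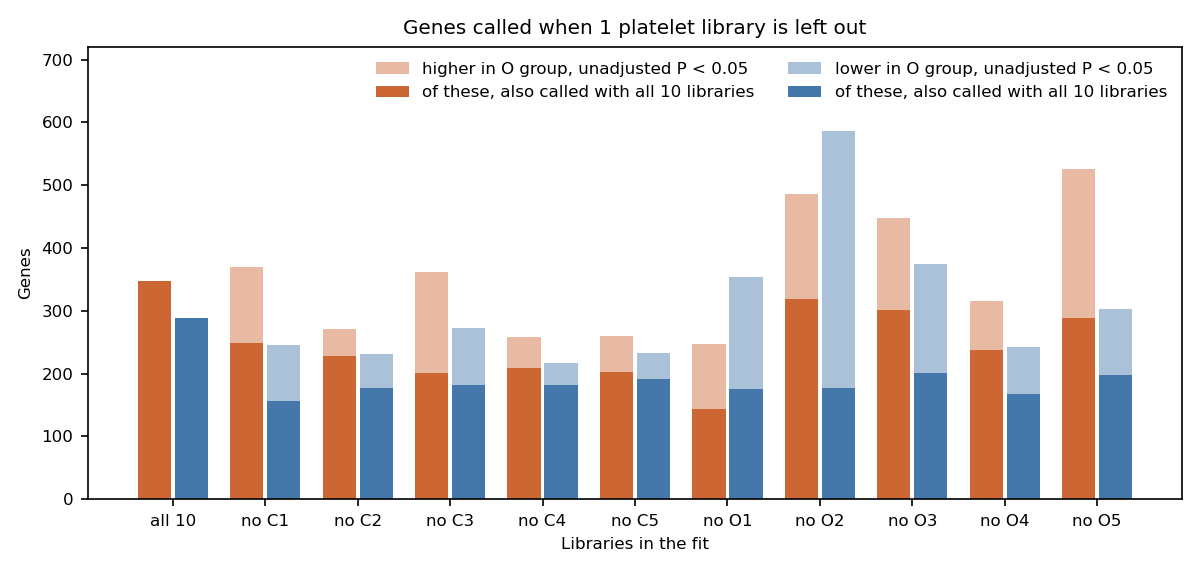
Genes with an unadjusted P under 0.05 in the fit of all 10 libraries and in the 10 fits that leave out 1 library, higher (orange) or lower (blue) in O group. The dark part of each bar counts genes also called with all 10 libraries; without O1 it is 143 of 347 and 176 of 288.

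PBMCs of the same groups served as a second tissue. Their pools held 5 mice in C group and 3, 4, 5, 3 and 5 in O group. The paper took PBMCs from the blood spun for platelets, so the 2 tissues may share mice. The test between tissues treated all libraries as separate samples. For the 24 leading genes, 22 differed in the same direction in PBMCs, 4 of them with P under 0.05. The test of the difference between tissues gave an unadjusted P under 0.05 for 13 of the 24, beside 5.35% of 15836 genes, and none with an adjusted P under 0.05, the smallest being 0.706. The 24 genes were chosen by their platelet difference, so nothing is read from these counts. The shares of all genes with the same direction in both tissues, or with a PBMC call, were not counted. The interaction of Pstpip2 was 1.19 ± 0.29 (SE, adjusted P = 0.706) on the log2 scale, with a PBMC difference of 0.12. Apaf1 had an interaction of 0.51 ± 0.15 (SE, adjusted P = 0.895). For 2 leukocyte genes the PBMC values went the same way: in PBMCs S100a8 was higher by 1.68 and Cd8b1 lower, at -0.40. The interactions of both missed the unadjusted threshold, which does not show the tissues to be equal.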

How the data were processed

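RNA of platelet pellets was sequenced as poly-A libraries, whose strandedness is not given in the sources used here, so overlapping and antisense genes, and near-identical copies such as the hemoglobin genes, are uncertain. The authors aligned reads with HISAT2 2.0.5 and deposited raw counts per gene from featureCounts 1.5.0-p3. The submitters' notes name the build mm9, whereas the gene identifiers matched a GRCm38 annotation, from which symbols and coordinates were taken. The label for cell type of the platelet samples reads PBMC, while titles and sources read platelet.

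Counts of the 10 libraries were filtered (filterByExpr), scaled by trimmed mean of M values and tested with edgeR 4.0.16 (quasi-likelihood, two-sided) in R 4.3.3, with Benjamini-Hochberg adjustment. DESeq2 1.42.0, limma 3.58.1 with sample weights, other scalings and filters, a replicate block and fits without single libraries were alternatives. DESeq2 left 340 P values undefined. Library measures were compared over 252 arrangements. The tests were tried on simulated data.

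The members and gene lists were chosen with earlier results of these data known. Named were the 12 genes in each direction with the smallest P, a mean of at least 5 CPM and groups that do not overlap, list members that passed or were the 2 most abundant, the gene of which each library held the largest share, and the 10 most abundant genes. The genes raised in O1 and O4 and the retina and lens list were chosen after their values were seen. A few genes that the rule names are not reported here. Precision is limited by 5 pools a group at 12259036 to 25360080 counts each.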

Additional observations from a re-analysis of the deposited data

Results flagged for a closer look

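In 47 of 228 sets of 5 libraries (1 gene in 1 group), or 20.6%, a single library lay apart from the other 4 by more than Dixon's 95% critical value of 0.71. Chance alone gives about 1 in 20, but some of these genes were named because 1 library held the largest share of them and others were called through O1, so the count is a description. O1 was that library in 28 of the 47. C1 was the highest of its group for Nhsl2 (10.3 CPM), Tpm2 (125 CPM), Cd4 (19.1 CPM), Tuba4a (637 CPM), Jchain (21.2 CPM) and mt-Co2 (174 CPM). C2 was the highest of its group for Prr3 (7.42 CPM) and Majin (232 CPM). C3 was the highest of its group for Coq2 (14.2 CPM), Ngp (4.48 CPM), Ptgds (39.8 CPM), Cystm1 (1.46 CPM) and Prph2 (74.1 CPM). C5 was the highest of its group for Gm29216 (42.5 CPM). O1 was the highest of its group for Synj1 (44.1 CPM), Pygl (158 CPM), Dgkh (13.1 CPM), S100a8 (1231 CPM), S100a9 (1292 CPM), Ngp (107 CPM), Lcn2 (104 CPM), Mmp8 (78.2 CPM), Wfdc21 (37.7 CPM), Stfa2l1 (58.0 CPM), Tfrc (392 CPM), Klf1 (22.7 CPM), Rhag (108 CPM), Ermap (102 CPM), Mki67 (659 CPM), Ccnb2 (90.7 CPM), Rrm2 (137 CPM), Ccnb1 (22.7 CPM), Tyms (44.1 CPM), Cpox (108 CPM), Adra2a (15.1 CPM), Ndufb8 (76.3 CPM), Uqcrb (60.4 CPM), Hk3 (35.7 CPM), Fosl2 (40.3 CPM), Csf2rb (141 CPM), Cystm1 (54.6 CPM) and Slc4a1 (6541 CPM). O2 was the highest of its group for mt-Co2 (173 CPM) and Prph2 (2.97 CPM). O4 was the lowest of its group for Hk2 (6.52 CPM). O5 was the highest of its group for N4bp1 (37.4 CPM). O5 was the lowest of its group for Cept1 (6.56 CPM). Of the 24 leading genes, 24 were called without O1, 16 without O1 and O4, and 20 without C1 and C3, where Cd5, Cd79b, Coq2 and Cept1 lost the call.

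For 19 of the named genes the O group effect in platelets differed from that in PBMCs at an unadjusted P under 0.05, with no adjusted P under 0.05 over 15836 genes. The platelet minus PBMC differences, on the log2 scale, were 0.79 for Nhsl2, 1.19 for Pstpip2, 0.59 for Rap1gap2, 0.65 for Synj1, 0.48 for Rab31, 0.51 for Apaf1, 0.33 for N4bp1, 0.61 for Dgkh, 0.38 for Abr, -1.05 for Slc15a2, -0.66 for Tmem168, -0.36 for Cept1, 2.79 for Cst7, 1.61 for F2r, 1.13 for Ndufv3, 0.81 for Hk2, -0.72 for Ace, 0.72 for Flt1 and 0.99 for Mitf.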

How the results depend on the processing

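With 5 pools a group, a coefficient of variation of 0.392 and no adjusted call, the single genes at an unadjusted P are imprecise. Against 347 genes higher and 288 lower, DESeq2 gave 521 higher and 13 with an adjusted P under 0.05. With no filter on low counts edgeR gave 826 and 721, a fit of all 3 groups 611 higher, sample weights 488 lower, and only the C group pools of 5 mice 201 and 189. Without the pools of 3 mice 184 were lower, and without C1 and C3 182, both alternatives chosen after seeing the data. Leaving out each library in turn gave 247 to 526 higher (526 without O5), 216 to 586 lower (586 without O2), 0 with an adjusted P under 0.05 and 10 to 13 of the 24 leading genes with an interaction. The difference between the groups then ran from -1182 to -528 genes with at least 1 count (-1182 without O5, where it passed the test), from -3610650 to -1092280 counts, from -6.49 to -1.15 percentage points for the top 10 genes, and from -2.44 to 0.932 for mitochondrial genes (0.830 without C2, 0.932 without O1, 0.187 without O5). The causes were not tested.

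Without O1 the log2 difference changed sign for Lcn2, Tfrc, Rhag and Ermap, whose ranges over the 10 fits were -0.45 to 2.98, -0.47 to 3.64, -0.23 to 3.91 and -0.32 to 3.26, and with sample weights for Tfrc (-0.11). Without O1 and O4 it did for Dstn (-0.24), Tpm2 (-0.19), Clca3a1 (-0.061), Slpi (-0.38), Selenom (-0.39), Lcn2 (-0.23), Tfrc (-0.39), Rhag (-0.46), Ermap (-0.48), Ccnb2 (-0.038), Rrm2 (-0.27), Tyms (-0.20), Tuba4a (-0.094), Uqcrq (-0.19) and F10 (-0.15). For 92 called genes, 735 of 920 values with 1 library left out and 744 of 1012 under the other settings stayed past the threshold in the same direction.

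With the replicate number as a block, 339 genes were higher and 524 lower, and 26 of the 92 named genes called lost their call, namely Dstn, Tpm2, Clca3a1, Slpi, Cst7, Selenom, Ngp, Lcn2, Wfdc21, Tfrc, Klf1, Rhag, Ermap, Mki67, Ccnb1, Ccnb2, Rrm2, Tyms, Cpox, Adra2a, Tuba4a, Ptgds, Ndufv3, Ndufb8, Uqcrb and Uqcrq. Correlations of the deviations of same-numbered libraries were 0.366, 0.496, 0.186, -0.0792 and 0.340 for numbers 1 to 5, and 4 of 5 O group libraries correlated best with their own number, a hint of pairing from the data. The labels do not say that a number marks a shared day or batch. The paper describes its platelet data as 5 independent experiments, without tying them to the numbers. Since 1 correlation was not above 0.1, the block was kept as an alternative. The smallest adjusted P of edgeR was 0.176 with the block and 0.910 without it. The main fit may ignore a pairing.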
